A study of Homo sapiens with 6 samples.

Results

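The genes described here encode the heterogeneous nuclear ribonucleoproteins (hnRNPs) and proteins of the core spliceosome, with the numbered RNA-binding motif (RBM) proteins beside them. They were taken by symbol: every row of the expression table whose name begins with HNRN, HNRP, SF3A, SF3B, SNRP, PRPF or U2AF, or is RBM followed by a number. PRPF4B and names with a pseudogene suffix were left out, which removed 6 of 92 rows. This gave 86 of the table's 12306 rows: 20 hnRNP genes, 12 SF3 and U2AF genes, 10 SNRP genes, 12 PRPF genes and 32 RBM genes. RNA was taken from the established uveal melanoma line 92.1, which is human, so every value describes a single line in culture. Cells received 1 µM VS-4718, an inhibitor of focal adhesion kinase, or the DMSO vehicle, each for 2 h in RPMI-1640 with serum, and each group had 3 libraries. The series calls them independent samples without naming separate cultures, so the spread between them, on which every p-value rests, may be technical.

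Splicing removes introns through a series of RNA and protein particles. The U1 particle binds the start of an intron, the U2AF pair reads its end, and the U2 particle with its SF3a and SF3b parts settles on the branch point. The U4, U5 and U6 particles, which carry most of the PRPF proteins, then join and are remodelled into the active enzyme, while rings of Sm proteins (the SNRPB, SNRPD and SNRPE group) hold the small RNAs together. HnRNPs coat the transcript and mostly steer which exons are used. In uveal melanoma SF3B1 is among the genes that are mutated again and again.

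Each value is the log2 of a TPM-like quantity, an abundance per transcript length scaled to a near-fixed total, so the depth of a library is unknown. Row names follow mouse usage although the sources name the human build GRCh38, and no source used here says which transcripts served as the reference. Of the 86 rows, 84 carried a current human symbol, and RBM12B1 and RBM8A2 did not. A level therefore describes a row of the table, and rows of related genes or pseudogene copies may share reads. Of the melanocyte markers, PMEL, TYRP1 and SOX10 were high in both groups (vehicle means of 12.21, 11.21 and 8.20), while MLANA and TYR lay below 0 and DCT at 0.63 on the log2 scale. Of 13 markers of fibroblasts, immune, endothelial and epithelial cells, 5 had a row; PECAM1 stood at 2.53 in vehicle and the other 4 lay below 0 on average in both groups.

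The mean levels of the Sm protein and SF3b genes lay within 0.1 log2 units of each other with and without the inhibitor. The PRPF genes spread more, with differences from -0.34 to 0.15. The 8 members with the smallest p-values were HNRNPDL, HNRNPD, RBM15B, RBM39, RBM20 and PRPF39, with lower means under VS-4718, and RBM15 and RBM10, with higher ones. None of these passed the test across all rows. A linear model over the whole table (limma, with Benjamini-Hochberg adjustment at 0.05) called 0 of the 83 members that were high enough to test, and the smallest adjusted p among them was 0.179, for HNRNPDL. Over the whole table it called 0.130% of rows. At an unadjusted p under 0.05 the model had 6 members lower (7.23%), against 6.74% of all tested rows, and 2 higher (2.41%), against 3.02%, so both shares were near those of the table.

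**Figure D1:**
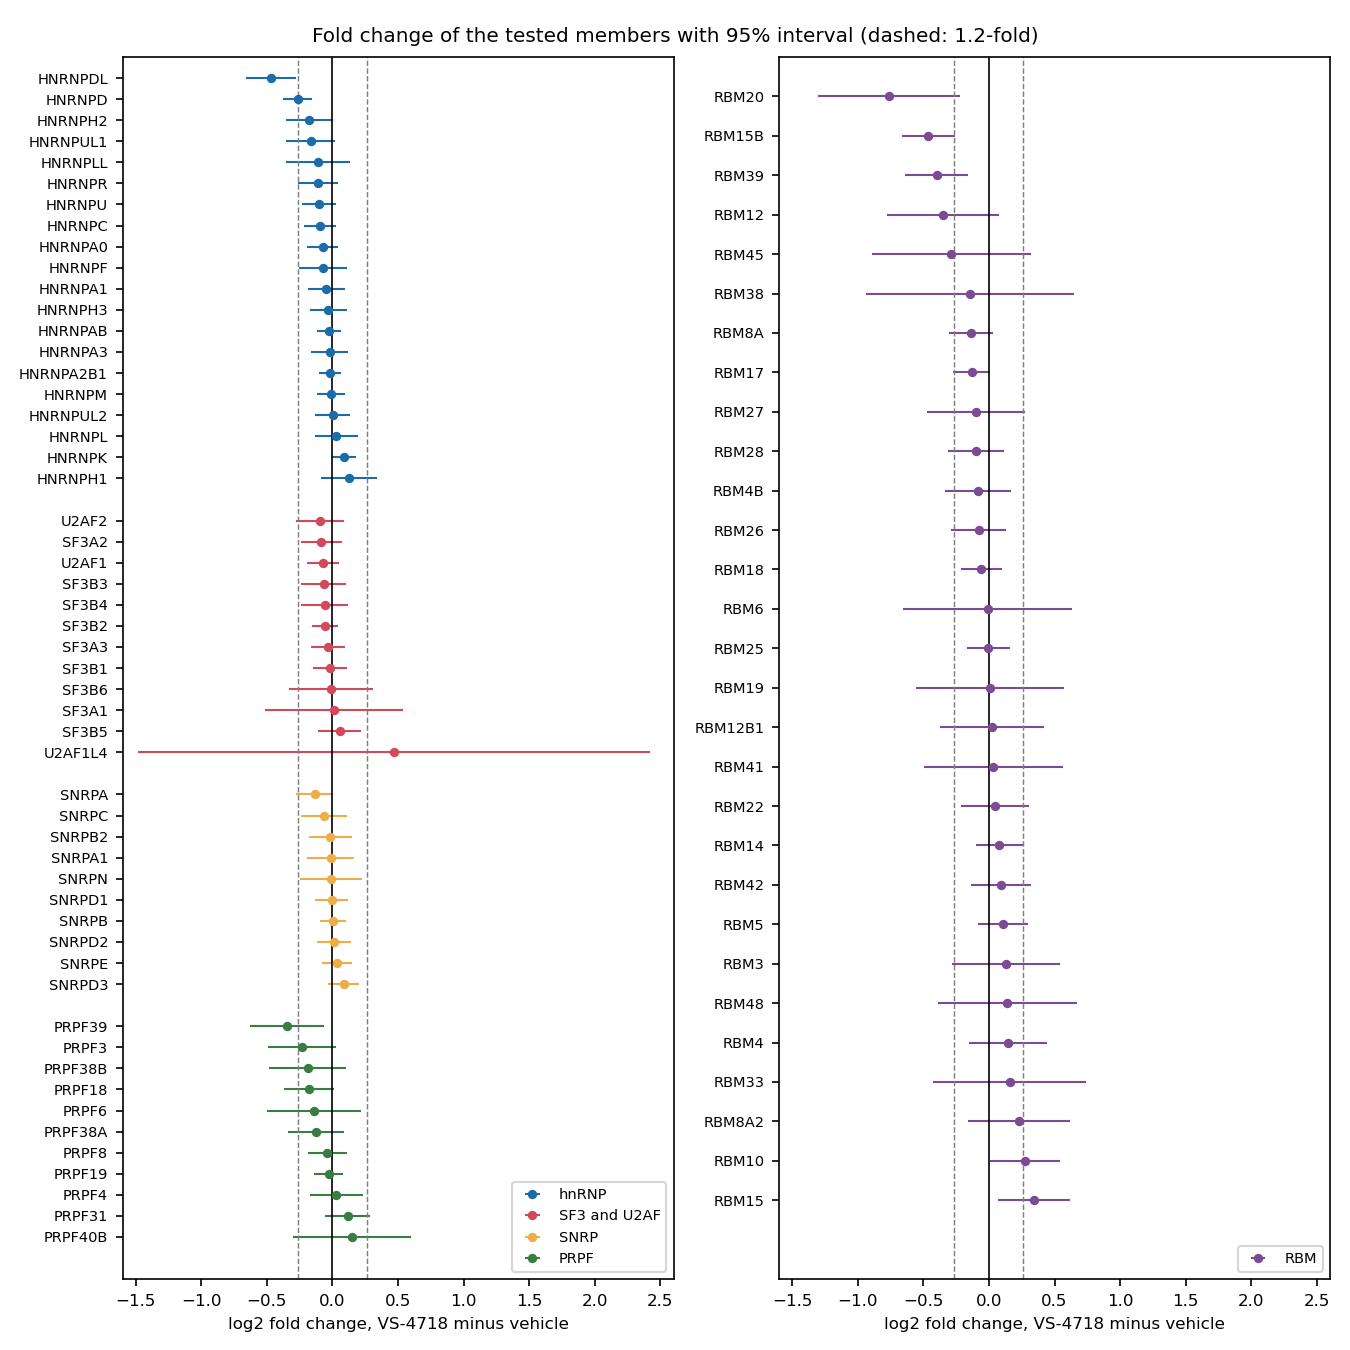
Fold change of 82 of the 83 tested members by subfamily, with the 95% interval of the model. The horizontal axis is the log2 difference, VS-4718 minus vehicle, and the dashed lines mark 1.2-fold in either direction. The SNRP genes lie between -0.14 and 0.09, while the RBM genes reach from -0.76 to 0.34 with wider intervals.

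By counts of means the members resembled the rest of the table. Of the 83 tested members 55 had a lower mean with VS-4718 (66.3%), against 58.2% of all tested rows. The median log2 fold change was -0.03 among the members and -0.03 among all rows. With each library shifted to an equal median, 39 members (47.0%) and 49.3% of all rows had a lower mean, so the excess of lower means depended on the scaling. The medians of the subfamilies were -0.06 for the hnRNP genes, -0.05 for SF3 and U2AF, -0.01 for SNRP, -0.08 for PRPF and -0.003 for RBM. Each moved by over 1.5 times with some library left out: the hnRNP median was -0.02 without vehicle replicate 2, the PRPF median -0.04 without VS-4718 replicate 2, and those of SNRP and RBM turned positive without vehicle replicate 2. The SNRP median was also positive without VS-4718 replicate 1, and the RBM median without VS-4718 replicate 2. The mean of the SF3 and U2AF genes had the opposite sign to their median (0.003); the set includes U2AF1L4, at 0.47 with a wide spread. Treated and vehicle values did not overlap in 18 members that were lower (21.7%), against 11.2% of all tested rows, and in 4 that were higher (4.82%), against 5.15%. After median scaling these counts were 9 lower (10.8%) and 5 higher (6.02%), against 8.10% and 7.64% of all rows.

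**Figure D2:**
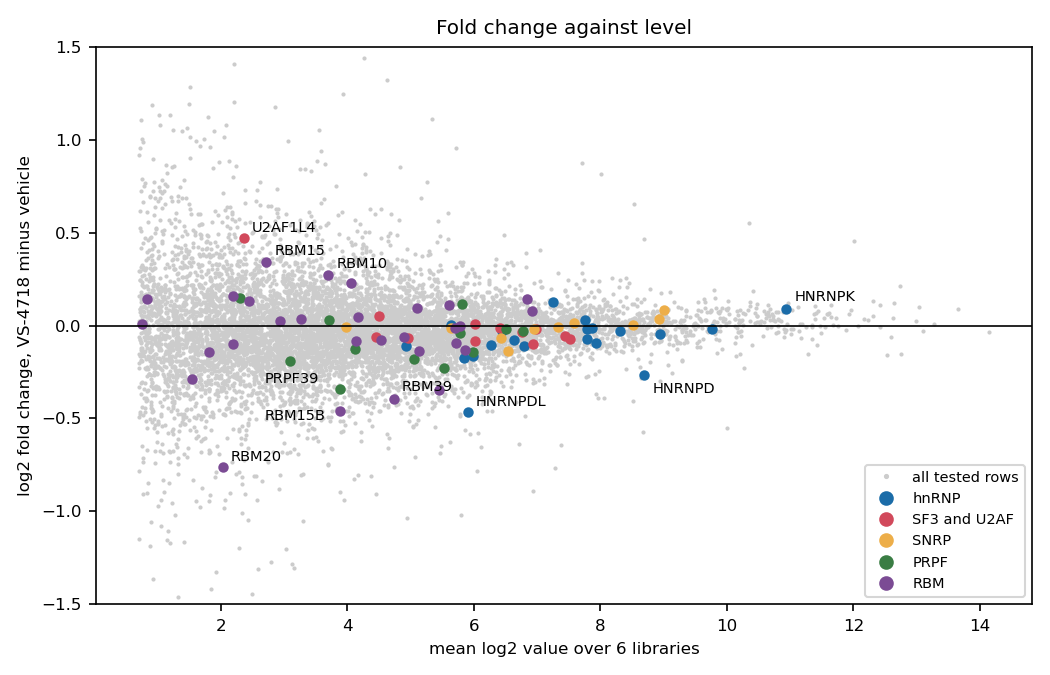
Log2 fold change (VS-4718 minus vehicle) against the mean log2 value over 6 libraries, for all tested rows in grey and the members in colour. The axis ends at 1.5 in either direction, which leaves out 18 rows, none of them members; abundant members such as HNRNPK lie close to 0 and the low RBM genes spread most.

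Intervals were narrowest among the SNRP, hnRNP and SF3 and U2AF genes. The 95% interval of the fold change lay wholly within 1.2-fold of no change for 9 of 10 SNRP genes, 14 of 20 hnRNP genes, 8 of 12 SF3 and U2AF genes, 4 of 12 PRPF genes and 3 of 29 tested RBM genes. The share was 20.7% among all tested rows and 38.9% among those at or above the median level. These intervals are unadjusted, and the median SE was smaller in sets of high level than in the RBM genes. The median of the mean log2 values was 7.14 for SNRP, 7.50 for hnRNP and 4.13 for RBM genes, with median SEs of 0.057, 0.059 and 0.12. It was 0.12 among all tested rows and 0.087 among those at or above the median level. The hnRNP genes, though higher in level than the SNRP genes, had a smaller share of such intervals. Across the 81 tested members with a human match, the size of the change and the level had a Spearman correlation of -0.41, given as a description across genes of the same libraries.

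**Figure D3:**
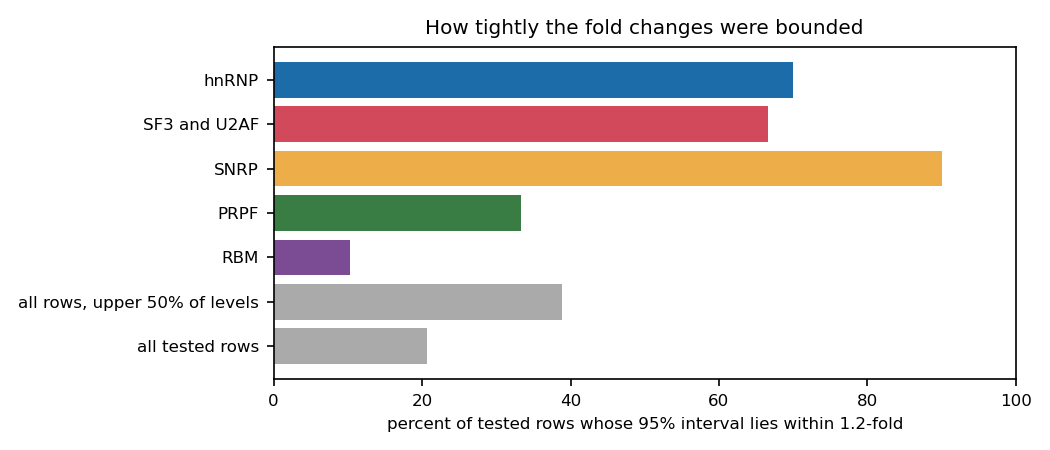
Share of tested rows, in percent, whose 95% interval of the fold change lay within 1.2-fold of no change, for each subfamily and for the table. The bars run from 90% for the SNRP genes to 10.3% for the RBM genes, against 20.7% of all tested rows.

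The branch point and 3' splice site proteins were nearly level. SF3B1, the largest SF3b subunit, which contacts the branch point, had log2 values of 7.02, 6.98 and 6.95 in vehicle and 6.93, 6.92 and 7.04 with VS-4718. The groups overlapped, and the interval of the difference ran from -0.15 to 0.11. SF3B2, another SF3b subunit, had values of 7.49, 7.48 and 7.45 and then 7.43, 7.39 and 7.43. The treated libraries were all lower, with a mean difference of -0.06 (SE 0.04). SF3B3 and SF3A2, of the SF3b and SF3a parts, had differences of -0.07 (SE 0.07) and -0.08 (SE 0.06). U2AF1, which reads the AG at the intron's end, had 7.55 ± 0.01 (SD, n = 3) in vehicle and 7.48 ± 0.07 with VS-4718, and its partner U2AF2, which binds the pyrimidine tract, 6.97 ± 0.13 and 6.88 ± 0.06. Some rows varied far more. SF3B6, also of SF3b, had values of 6.51, 6.64 and 6.09 in vehicle and 6.42, 6.40 and 6.40 with VS-4718. Its interval ran from -0.33 to 0.31. SF3A1 had values of 6.07, 5.98 and 6.01 in vehicle but 6.41, 5.48 and 6.20 with VS-4718, so its mean hides a wide spread in the treated libraries. U2AF1L4, a relative of U2AF1, ran from 0.86 to 2.98 in vehicle and from 1.42 to 4.24 with VS-4718, and its interval of -1.48 to 2.42 tells nothing of a change.

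Among the proteins of the small nuclear particles, the Sm genes were abundant and differed little. SNRPB, which encodes the Sm proteins B and B', had values of 8.48, 8.52 and 8.54 in vehicle and 8.47, 8.56 and 8.52 with VS-4718. Its interval, from -0.09 to 0.11, was among the narrowest of the members. SNRPD3 and SNRPE, of the same ring, had differences of 0.09 (SE 0.05) and 0.03 (SE 0.05), and SNRPD1 and SNRPD2 differed by under 0.02. The most negative difference of the set was that of SNRPA, the U1 protein that binds a stem loop of U1 RNA. It had values of 6.67, 6.62 and 6.52 and then 6.50, 6.43 and 6.47. The groups were narrowly apart, and the difference of -0.14 (SE 0.06, limma adjusted p = 0.527) did not pass. SNRPC, also of U1, and SNRPB2, the U2 relative of SNRPA, overlapped between groups, with differences of -0.07 and -0.02. SNRPC reads may also lie in a pseudogene row that the rule leaves out, SNRP1C-PS2, which stood higher than SNRPC itself, between 7.94 and 8.05 in vehicle and between 7.96 and 7.99 with VS-4718 (log2).

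The PRPF genes had 9 of 12 means lower with VS-4718 (75%), against 58.2% of all tested rows, and 4 of the 12 were lower with no overlap (33.3%), against 11.2%. Lower means were as frequent among the SF3 and U2AF genes (9 of 12) and more so among the hnRNP genes (16 of 20, 80%). They were less frequent among the SNRP (6 of 10) and RBM genes (15 of 29). Of the hnRNP genes 6 were lower with no overlap (30%). After median scaling 7 PRPF means were lower and 0 of the 12 were free of overlap. Then 4 of 20 hnRNP genes (20%) and 5 of 29 RBM genes (17.2%) were lower with no overlap, against 8.10% of all tested rows. The SNRP and the SF3 and U2AF genes had 0. PRPF39, the relative of a yeast U1 protein, had values of 3.91, 4.18 and 4.08 in vehicle and 3.65, 3.59 and 3.90 with VS-4718. The highest treated library lay just under the lowest vehicle one, and the difference of -0.34 (SE 0.12) had an unadjusted limma p of 0.0239 and an adjusted one of 0.441. PRPF3, of the U4/U6 particle, had a difference of -0.23 (SE 0.11), PRPF18, a second-step factor, one of -0.18 (SE 0.08) and PRPF38B one of -0.19 (SE 0.12). Without vehicle replicate 2 the difference of PRPF3 was -0.13, and without VS-4718 replicate 1 that of PRPF38B was -0.11. PRPF31, also of U4/U6 and known for its part in retinitis pigmentosa, had a higher mean, by 0.12 (SE 0.07). PRPF8, the large protein at the heart of U5, had values of 5.85, 5.72 and 5.82 and then 5.79, 5.76 and 5.72, with an interval of -0.19 to 0.11. PRPF19, a ubiquitin ligase and the most abundant of the set, had a difference of -0.03 (SE 0.05).

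Within the hnRNPs, the smallest p-values belonged to a related pair. HNRNPD (AUF1) and HNRNPDL are close relatives that bind AU-rich RNA and are known to splice their own transcripts into forms that decay. HNRNPD had log2 values of 8.81, 8.90 and 8.76 in vehicle and 8.57, 8.54 and 8.56 with VS-4718. All 3 treated libraries lay below all 3 vehicle libraries, and the geometric mean differed by -16.8%. HNRNPDL had values of 6.13, 6.07 and 6.20 and then 5.79, 5.54 and 5.66. The groups were again apart, with a difference of -27.7%. Their log2 fold changes were -0.26 (SE 0.05) and -0.47 (SE 0.08). By unadjusted limma p they ranked 40 and 37 of 9229 rows (0.000809 and 0.000719), yet neither passed after adjustment (0.184 and 0.179). Both kept an unadjusted p under 0.05 in each of 12 other settings, and neither passed the adjusted threshold in any.

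The human genes of this pair are neighbours. In GENCODE 29 on GRCh38, HNRNPD lies on chromosome 4 from 82352498 to 82374503 and HNRNPDL on the same strand from 82422564 to 82430408, 48.1 kb apart; both are protein coding. The table gives 1 value per gene, not per exon or transcript. Of the other genes within 200 kb, ENOPH1, an enzyme of methionine salvage, had a row, at 5.30 ± 0.05 in vehicle and 5.22 ± 0.05 with VS-4718 (SD). Its values overlapped between the groups. The annotation lists 2 transcripts of HNRNPD and 4 of HNRNPDL as targets of nonsense-mediated decay. Over all tested members with a human match, the 37 with such a transcript and the 44 without had median log2 fold changes of -0.02 and -0.03. Whether decay acts on this pair was not tested.

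**Figure D4:**
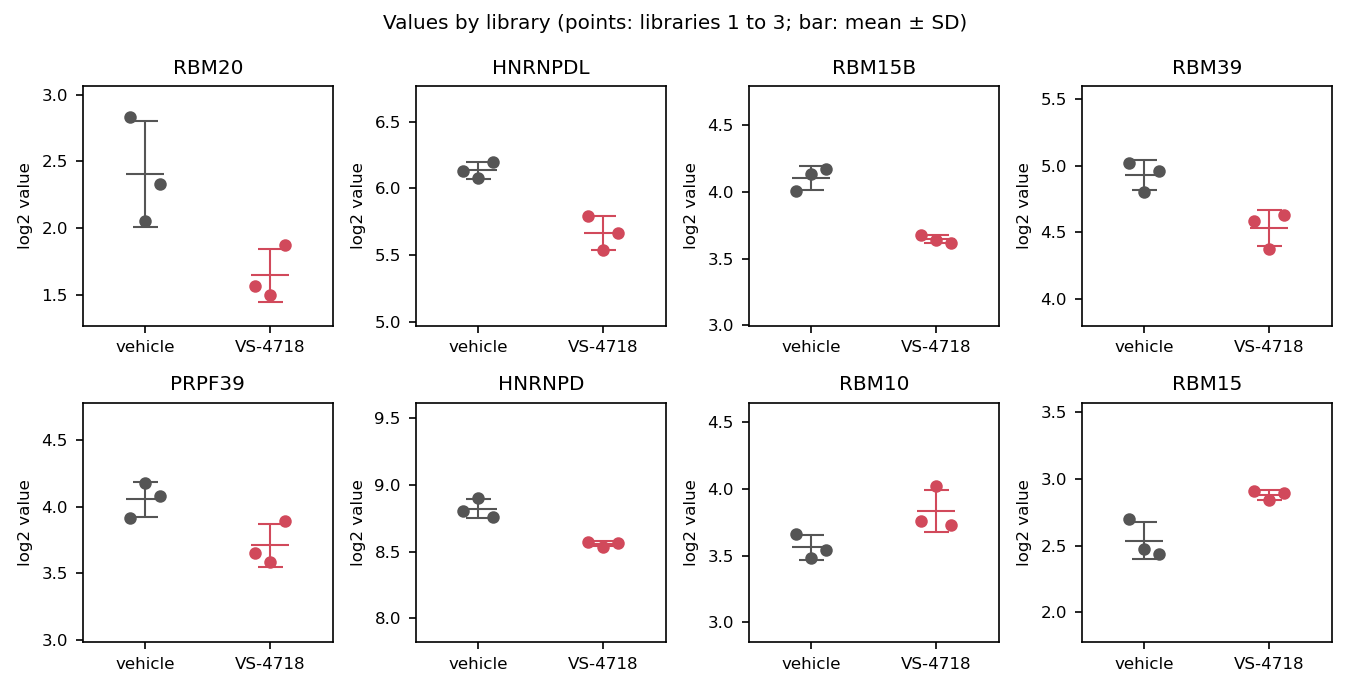
Log2 values of the 8 members with an unadjusted limma p under 0.05, by library. Points are the 3 libraries of each group, bars the mean and SD, and every panel spans 1.8 log2 units. The groups do not overlap in any panel; HNRNPD lies near 8.8 in vehicle and 8.6 with VS-4718.

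The remaining hnRNPs differed by at most 0.18 log2 units. HNRNPK, a poly(C)-binding protein and the most abundant member, made up 30.8% to 34.5% of the summed TPM-like values of the hnRNP rows. It had values of 10.90, 10.87 and 10.90 and then 10.97, 10.91 and 11.05, all higher with VS-4718 but by 0.09 (SE 0.04, limma adjusted p = 0.527). HNRNPA2B1, next in level, and HNRNPA1, both repressors of exons, had differences of -0.02 (SE 0.04) and -0.05 (SE 0.06). HNRNPC, which binds uridine tracts, had values of 7.97, 8.05 and 7.92 and then 7.92, 7.84 and 7.89. Its groups overlapped narrowly, and the difference was -0.10 (SE 0.05). HNRNPH2, a binder of G runs, and HNRNPUL1 had means lower by 0.18 (SE 0.07) and 0.17 (SE 0.08) with no overlap, and neither passed; that of HNRNPUL1 was -0.09 without vehicle replicate 1.

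The RBM genes had differences in both directions, with 15 of 29 tested means lower. RBM15 and RBM15B, relatives that bring the m6A methyltransferase to RNA, lay on opposite sides. RBM15B had values of 4.01, 4.14 and 4.17 in vehicle and 3.68, 3.64 and 3.62 with VS-4718. The treated libraries lay close together and differed from vehicle by -27.4% in geometric mean. RBM15 had values of 2.70, 2.48 and 2.44 and then 2.91, 2.84 and 2.90. All treated libraries were higher, by 27.0% on average. The log2 fold changes were -0.46 (SE 0.09, limma adjusted p = 0.189) and 0.34 (SE 0.12, adjusted p = 0.420), so neither passed. Within a library the log2 difference RBM15 minus RBM15B was -1.31, -1.66 and -1.74 in vehicle and -0.77, -0.80 and -0.72 with VS-4718. The ratio of the pair was thus 0.337 in vehicle and 0.589 with VS-4718, and no scaling of a whole library can move it. This ratio was picked after its values were seen and has no test; with 3 libraries against 3 an exact permutation cannot go below a p of 0.1.

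Of 16 pairs of relatives looked at in this way, 4 had differences that did not overlap between groups. These were RBM15 and RBM15B, HNRNPH1 and HNRNPH2, SNRPA and SNRPB2, and RBM8A and RBM8A2. Of single tested rows, 11.2% were lower and 5.15% higher with no overlap. No such share was computed for other pairs of rows, so the count has no base to be read against. HNRNPH1 minus HNRNPH2 had a vehicle value of 1.26 ± 0.10 and a treated one of 1.56 ± 0.05 (log2, SD), with HNRNPH1 higher and HNRNPH2 lower by means. RBM8A encodes the Y14 protein of the exon junction complex, and RBM8A2 is a name without a human match, so that pair may divide reads of 1 gene. The pair HNRNPD and HNRNPDL overlapped, since both had lower values.

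**Figure D5:**
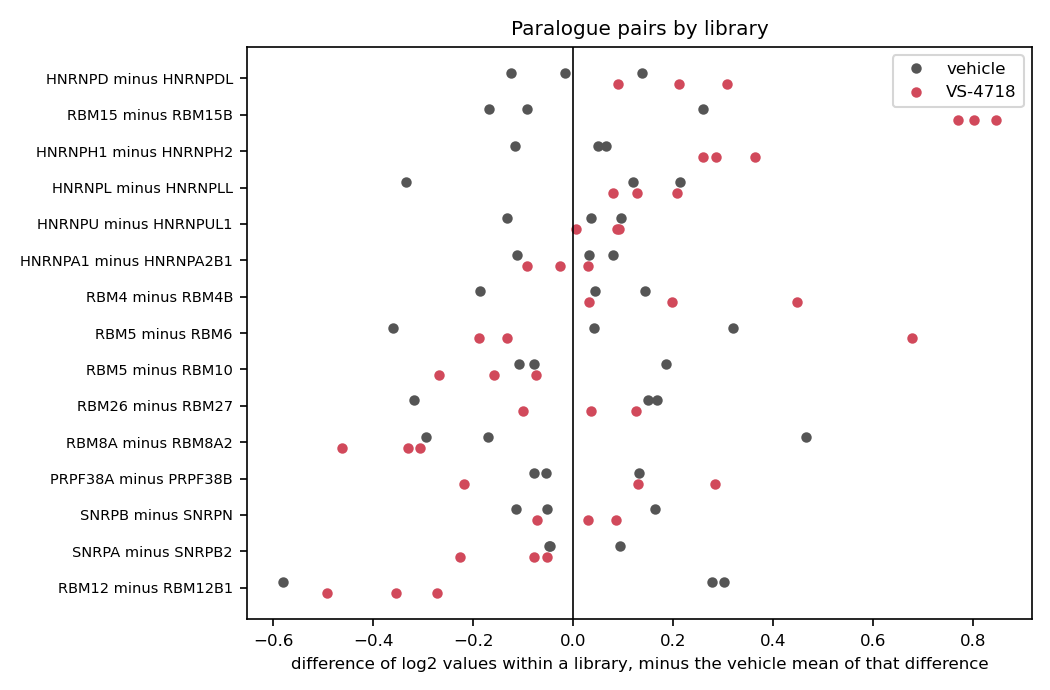
Log2 difference between 2 related genes within each library, set against the vehicle mean of that difference, for 15 pairs (U2AF1 and U2AF1L4, whose spread is over 1 log2 unit, is not drawn). Grey points are vehicle libraries and red points VS-4718. The RBM15 pair stands 0.81 log2 units to the right of its vehicle mean.

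Sequence before the starts of HNRNPD, HNRNPDL, RBM15 and RBM15B is printed here because the first pair lay lower together and the second lay on opposite sides. The window searched was the 250 bases before the most upstream RefSeq start (GRCh38.p14), on the gene's strand. From it the 30 bases around CACGTG are given, with capitals for these letters, the palindromic E-box read by MYC, MITF and their relatives.
HNRNPD, chr4:82374001-82374030, minus strand: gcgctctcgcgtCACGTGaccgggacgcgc
HNRNPDL, chr4:82430572-82430601, minus strand: ggagcccgagacCACGTGggcaggaaaagg
RBM15, chr1:110339184-110339213, plus strand: aacactttgggtCACGTGaccgcagagtgc
RBM15B, chr3:51391193-51391222, plus strand: ccgccgcagagtCACGTGgcaggacggcgc
All 4 hold the hexamer, which begins 27, 127, 181 and 80 bases before the RefSeq start in that order. GENCODE 29 places starts of HNRNPD and RBM15 further upstream, so the hexamer of HNRNPD lies within that gene's span, outside its exons, and that of RBM15 within an exon of RBM15. The one before HNRNPDL lies in an exon of ENOPH1, on the other strand. The hexamer is found in 10 of the 75 member genes with such a sequence (13.3%) and in 6.46% of all genes in the set. Of the 9229 tested rows 6077 matched such a sequence, and 10.1% of these hold it. The motif shares of tested rows given below have the same base. The other members with the hexamer are HNRNPA3, HNRNPH2, HNRNPH3, HNRNPM, RBM19 and SF3B1, whose differences lay between -0.18 and 0.01. The 10 had a median log2 fold change of -0.03 and the other 63 tested ones -0.03. The ETS motif CCGGAAG (either strand) was present in 33.3% of member genes, against 17.7% of tested rows and 8.78% of all genes, but among the 4 only HNRNPD has it. The CCAAT letters (either strand) were present in 53.3% of member genes and 36.4% of tested rows. Another 5 motifs were searched on either strand: the GC box GGGCGG was in 62.7% of member genes and 70.5% of tested rows, the TEAD letters GGAATG in 9.33% and 9.45%, the AP-1 letters TGANTCA in 5.33% and 3.28%, the CRE TGACGTCA in 4.0% and 3.36%, and the NRF1 motif in 0% and 2.11%. Like the E-box, the GC box was in all 4 windows, with 1 copy for HNRNPD, 4 for HNRNPDL, 2 for RBM15 and 3 for RBM15B. All of these are matches of letters and show no binding.

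Further RBM genes with an unadjusted limma p under 0.05 were RBM39, RBM20 and RBM10. RBM39, a U2AF-like splicing factor and coactivator, had values of 5.02, 4.80 and 4.96 and then 4.59, 4.38 and 4.63. The groups were apart, with a difference of -0.40 (SE 0.10, adjusted p = 0.332). RBM20, known for splicing titin in heart muscle, was low in these cells, with values of 2.83, 2.05 and 2.33 and then 1.57, 1.49 and 1.87; the groups were apart, with a wide spread in vehicle (-0.76, SE 0.23, adjusted p = 0.376). RBM10, which promotes exon skipping, had values of 3.66, 3.48 and 3.55 and then 3.76, 4.02 and 3.73, all higher with VS-4718 but close at the border (0.27, SE 0.11). RBM14, the most abundant RBM row and a coactivator found in paraspeckles, had a difference of 0.08 (SE 0.08). RBM15, RBM10 and PRPF39 had an unadjusted p under 0.05 in 2 of the 6 fits that left out a library, while RBM15B, RBM39 and RBM20 did in 6 of 6.

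The other 3 RBM genes were too low to enter the test. RBM34 and RBM47 stood at -3.80 and -2.44 log2 units in vehicle and -3.80 and -2.57 with VS-4718, and both overlapped. RBM43 had values of -1.22, -0.53 and -0.78 in vehicle and 0.11, -0.13 and -0.17 with VS-4718; the groups were apart, and with no filter the difference was 0.78 (SE 0.27, limma adjusted p = 0.492). A cold-shock gene, RBM3, stood at 2.38 ± 0.18 and 2.52 ± 0.26 (SD). Its pseudogene row RBM3-PS, outside the rule, held 4.27 and 4.20 in replicate 1 of either group and next to nothing in the other 4 libraries, so that row differed between libraries and not between groups.

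Other spliceosome genes were taken from lists by role. Of 128 listed symbols 118 had a row and 115 were tested; limma called 0 after adjustment, with 13 lower (11.3%) and 2 higher (1.74%) at an unadjusted p under 0.05, against 6.74% and 3.02% of all tested rows. Their median was -0.04, against -0.03 for all rows. Means were lower for 74 of the 115 (64.3%), against 58.2% of all rows, and after median scaling for 58 (50.4%), against 49.3%; the counts of each list below are before scaling. The list built around the branch point and the U2 particle, which also holds U1-associated and general splicing factors, had 14 of 20 lower means and 4 at an unadjusted p under 0.05, all lower. Of these ACIN1 (-0.41, SE 0.07) is an exon junction partner, LUC7L3 (-0.41, SE 0.10) a U1-associated protein and SRRM1 (-0.25, SE 0.09) a splicing coactivator, while SMNDC1 (-0.38), named after its value was seen, joins the U2 particle. Exon junction and decay genes had 13 of 16 lower; PNN (pinin) had -0.35 (SE 0.08) and MAGOHB, a core subunit, -0.29 (SE 0.09). The hnRNP-type proteins with other symbols had 14 of 24 lower, with PTBP3, a polypyrimidine tract binder, at -0.51 (SE 0.11), TARDBP (TDP-43) at -0.20 (SE 0.06) and QK (quaking) at 0.33 (SE 0.10). The list of U5, U4/U6 and helicase proteins, from several stages of splicing, had 18 of 24 lower. Its named genes are the helicases DDX42 (-0.35, SE 0.09), DHX15 (-0.14, SE 0.06) and, the other way, DDX23 (0.24, SE 0.12). The set around PRP19 had 11 of 22 lower, with BUD13 at -0.50 (SE 0.17), CWC15 at -0.24 (SE 0.10) and GPATCH1 at -0.19 (SE 0.13). Minor spliceosome genes had 4 of 9 lower, with RNPC3 at 0.45 (SE 0.12), ZRSR2 at -0.59 (SE 0.22) and ARMC7 at -0.41 (SE 0.21). All of these missed the adjusted threshold.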

How the data were processed

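The submitters' processing notes name kallisto, with no version, and the genome build GRCh38; index, annotation and strandedness are not stated there. The authors deposited log2 values of a TPM-like quantity per gene symbol: on the linear scale the columns sum to between 836527 and 840714. Depth is unknown, so no counting interval can be given. limma 3.58.1 (R 4.3.3) was fitted to the whole table with group as the only term and a mean-variance trend, on the 9229 rows whose mean was above the lowest 25%; two-sided p-values were adjusted over all of them (Benjamini-Hochberg). A fold change is the treated minus the vehicle mean on the log2 scale, given with the SE and 95% interval from limma. The members and lists were chosen with earlier results of these data known. Members were named if past the threshold, among the 5 smallest p of a subfamily or highest in it, plus SF3B1, U2AF1, U2AF2, HNRNPA1, HNRNPC, SNRPB and PRPF8; in each companion list the 3 with the smallest p were named. Of these listed genes 1 is not reported here, and 1 member is left out of the plot of fold changes. Other members, RBM3-PS, SNRP1C-PS2 and ENOPH1, the pairs of relatives, the motifs and the printed sequences were chosen after their values were seen. Promoter sequences are from RefSeq (75 of 86 members matched). The fit was tested on simulated data. Other settings tried were the replicate number as a block, each library left out, median scaling, other filters, no trend and a pseudocount of 1. Figures were drawn with matplotlib 3.10.9.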

Additional observations from a re-analysis of the deposited data

How the results depend on the processing

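No member passed the adjusted threshold in any of the 12 alternatives (adjusted p of 0.155 at the lowest, with the filter at the median), where between 0 and 12 rows of the whole table passed. With the replicate block, 1 member was higher at an unadjusted limma p under 0.05, against 2 without it. With the filter at the median the count was also 1, but RBM15 lay below that filter and was not tested. With a library left out the count ran from 0 to 3. It was 0 without vehicle replicate 2, without vehicle replicate 3 and without VS-4718 replicate 1. The lower count ran from 6 to 8 in those fits. The replicate block changed no call among the members, while over the whole table the rows called went from 12 to 0. Deviations from the group means correlated at 0.13, 0.05 and 0.03 between libraries of the same number. Between libraries of unlike number the correlations ran from -0.094 to 0.049. The row RBM3-PS was high only in replicate 1 of either group (4.27 and 4.20). These values do not decide whether the numbers mark a pairing. With a library left out the RBM median ran from -0.045 to 0.033, hnRNP from -0.083 to -0.019, SF3 and U2AF from -0.072 to -0.027, SNRP from -0.021 to 0.012 and PRPF from -0.12 to -0.037. Of the 32 named members 19 then moved by over 1.5 times in at least 1 fit, 16 of them with a difference under 0.1 in size. Median scaling took the count of lower means from 55 to 39 and turned the sign of PRPF19 (0.0042), SF3B1 (0.016) and SNRPB2 (0.017). Signs near 0 also turned with a library left out for SF3B1 (-0.057 to 0.0031), SNRPB (-0.016 to 0.029), SNRPB2 (-0.074 to 0.038) and SNRPE (-0.00057 to 0.066). The other 372 values of named members kept their direction. TPM keeps no depth, so the limit that depth sets on low rows is not known.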
